A study of Mus musculus with 2 samples.

Results

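The genes of the major histocompatibility complex (MHC) and of the antigen presentation pathway were followed across the cells of the mouse prostate. They were chosen by name: every gene whose symbol starts with H2-, together with B2m, Tap1, Tap2, Tapbp, Cd74, Ciita, Nlrc5, Psmb8 and Psmb9. The rule took 43 of the 32285 genes in the deposited tables, 34 of them named H2- and 9 others. In kept cells, 28 of the 43 had at least 50 molecules counted in a library and 23 had them in both, while 15 stayed under 50 in both. The study profiled single cells of wild-type male C57BL6 mice, with 1 library of ventral lobes and 1 library of the proximal and periurethral part of the gland. Tissue was dissociated with papain and then TrypLE, and 5000 cells were aimed for on a droplet platform that counts the 3′ ends of mRNAs. Kit version 2 served for the ventral and version 3 for the proximal library, and the part of the gland and the kit therefore cannot be told apart. The labels used here give neither the age of the mice nor how many were pooled, and with 1 library per region no difference could be tested.

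MHC class I molecules sit on nearly all nucleated cells and show peptides made inside the cell to CD8 T cells. Each is a polymorphic heavy chain (H2-K and H2-D in this strain) held with the light chain beta-2-microglobulin, the product of B2m, and loaded with peptides that the immunoproteasome (Psmb8, Psmb9) cuts, the TAP transporter (Tap1, Tap2) carries and tapasin (Tapbp) helps to load. MHC class II molecules are alpha and beta chain pairs, here H2-Aa with H2-Ab1, found mainly on macrophages, dendritic cells and B cells. There the invariant chain Cd74 escorts them, H2-DM exchanges their peptides and H2-O holds H2-DM back. The E beta chain H2-Eb1 is counted with these chains as RNA, and no gene for an E alpha chain was among the 43. NLRC5 switches on class I genes and CIITA class II genes, and interferons raise both programmes.

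Most of these genes lay together: all 34 H2- genes were on chromosome 17, between positions 33915899 and 37483552 of GRCm38 (GENCODE M21), a span of 3.57 Mb that also held Tap1, Tap2, Tapbp, Psmb8 and Psmb9, whereas B2m was on chromosome 2. The bases before the annotated starts of 6 members that the results turn on are printed here from RefSeq (GRCm38.p6), 250 bases each, read 5′ to 3′ on the gene's strand. Capitals mark 5 short motifs searched on both strands: the CCAAT box, the core of a cAMP response element (TGACG), a kB-like motif in which any 3 bases separate GGGA from a run of 3 C, an interferon response-like motif in which any 2 bases separate a pair of GAAA, and the X1-like CTAGCAAC. They are shown to set the ubiquitously transcribed light chain, the classical heavy chains, the class II chains and H2-Q10, a class I gene whose product is secreted, side by side.
B2m: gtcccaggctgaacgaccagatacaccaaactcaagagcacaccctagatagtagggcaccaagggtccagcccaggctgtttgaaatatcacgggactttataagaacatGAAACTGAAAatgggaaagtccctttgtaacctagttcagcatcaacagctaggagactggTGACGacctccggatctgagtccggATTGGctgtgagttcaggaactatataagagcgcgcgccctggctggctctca
H2-K1: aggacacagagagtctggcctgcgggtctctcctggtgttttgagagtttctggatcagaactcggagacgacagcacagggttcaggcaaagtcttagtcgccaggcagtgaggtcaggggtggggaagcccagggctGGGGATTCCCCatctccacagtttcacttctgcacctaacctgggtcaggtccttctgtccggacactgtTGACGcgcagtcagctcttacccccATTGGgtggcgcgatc
H2-D1: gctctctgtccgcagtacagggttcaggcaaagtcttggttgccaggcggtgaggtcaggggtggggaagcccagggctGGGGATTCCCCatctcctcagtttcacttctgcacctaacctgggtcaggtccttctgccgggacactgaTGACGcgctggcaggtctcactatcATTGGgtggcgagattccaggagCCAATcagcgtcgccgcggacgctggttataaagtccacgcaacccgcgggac
H2-Q10: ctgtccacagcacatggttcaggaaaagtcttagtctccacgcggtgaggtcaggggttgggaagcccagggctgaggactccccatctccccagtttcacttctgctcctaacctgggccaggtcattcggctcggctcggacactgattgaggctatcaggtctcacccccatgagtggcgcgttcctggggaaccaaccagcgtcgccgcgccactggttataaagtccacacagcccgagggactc
H2-Aa: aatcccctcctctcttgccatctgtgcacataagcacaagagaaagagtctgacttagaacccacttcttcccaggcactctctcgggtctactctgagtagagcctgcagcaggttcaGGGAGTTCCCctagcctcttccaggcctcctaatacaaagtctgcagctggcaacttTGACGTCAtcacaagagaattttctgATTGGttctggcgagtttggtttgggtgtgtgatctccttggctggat
H2-Eb1: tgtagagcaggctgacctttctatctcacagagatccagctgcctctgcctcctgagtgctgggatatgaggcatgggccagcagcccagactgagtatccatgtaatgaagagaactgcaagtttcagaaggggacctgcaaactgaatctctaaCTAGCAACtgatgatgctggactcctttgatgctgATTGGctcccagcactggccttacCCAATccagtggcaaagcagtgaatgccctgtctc
These windows were 2:122147437-122147686 for B2m on the plus strand, 17:34000348-34000597 for H2-K1 and 17:34287824-34288073 for H2-Aa on the minus strand, and 17:35262844-35263093 for H2-D1, 17:35469839-35470088 for H2-Q10 and 17:34305617-34305866 for H2-Eb1 on the plus strand. H2-K1 and H2-D1 held the same kB-like stretch of 11 bases, GGGGATTCCCC, at positions -111 and -171 from the start, and both held TGACG and CCAAT nearer the start. H2-Q10 held none of the 5 motifs in the printed window. At the aligned place, position -176, it read GAGGACTCCCC, which differs from the H2-K1 stretch by G2A and T6C, counted from 1 at its 5′ end, and where H2-D1 had a second CCAAT at -53 it read CCAAC (T5C). B2m had the interferon response-like motif at -139, and the X1-like motif appeared in H2-Eb1 at -94. Over all 32851 RefSeq windows, which run from 250 bases before to 50 after the start, CCAAT was found in 37.4%, TGACG in 20.8%, the kB-like motif in 5.55%, the interferon response-like motif in 3.44% and the X1-like motif in 1.32%. Of the 22 members with at least 50 counts and a window, 19 held CCAAT, 10 TGACG, 7 the kB-like motif, 3 the interferon response-like motif and 1 the X1-like motif. Of the 14 less abundant members with a window, 12 held CCAAT, 5 TGACG, 2 the X1-like motif and none the kB-like or interferon response-like motif. These are matches of letters and not shown binding sites.

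Counts were unique molecular identifiers (UMIs), each a single captured mRNA molecule. After removal of barcodes with few genes or much mitochondrial RNA, 1988 of 2221 ventral and 3705 of 4344 proximal barcodes remained, with a median of 25758.5 and 15260 UMIs, and the libraries shared 0 barcodes. Clusters were formed without the 43 genes and were named from marker lists, so the names are rebuilt here and read as resemblance. The ventral library held 1704 distal luminal-like, 141 basal-like and 87 proximal luminal-like cells, and 30 macrophage-like and 26 T or NK cell-like cells. The proximal library held 911 basal-like, 707 distal luminal-like, 571 proximal luminal-like and 26 seminal vesicle epithelium-like cells, 522 fibroblast-like and 61 endothelial-like cells, and 79 macrophage-like and 27 T or NK cell-like cells. Also, 2 proximal clusters of 801 cells stayed unnamed. All markers of each class lay above the rest of its library, except Gzma, which had no UMI in the ventral T or NK cell-like cells. The secretory transcripts Sbp and Spink1 made up 45.8% of UMIs in ventral distal luminal-like cells, and still 36.2% in the T or NK cell-like, 21.1% in the macrophage-like and 17% in the proximal luminal-like cells of that library, against 0.107% to 0.229% in the proximal classes other than distal luminal-like. In the ventral macrophage-like class, 2 of the 30 cells carried over 5% of these transcripts, and 15 of the 26 ventral T or NK cell-like cells did, so that class was left out of comparisons, a choice made after its values were seen. The doublet caller marked 0.193% of cells and is taken not to have worked, so most doublets remain.

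Levels are given as CPM, a gene's UMIs per 1000000 UMIs summed over a class, with exact 95% Poisson intervals or, for ratios, exact conditional intervals. These intervals cover counting error only, since cells of a library are not replicates. A level compares classes for the same gene and not genes with each other, because 3′ counts carry no length scale.

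**Figure D1:**
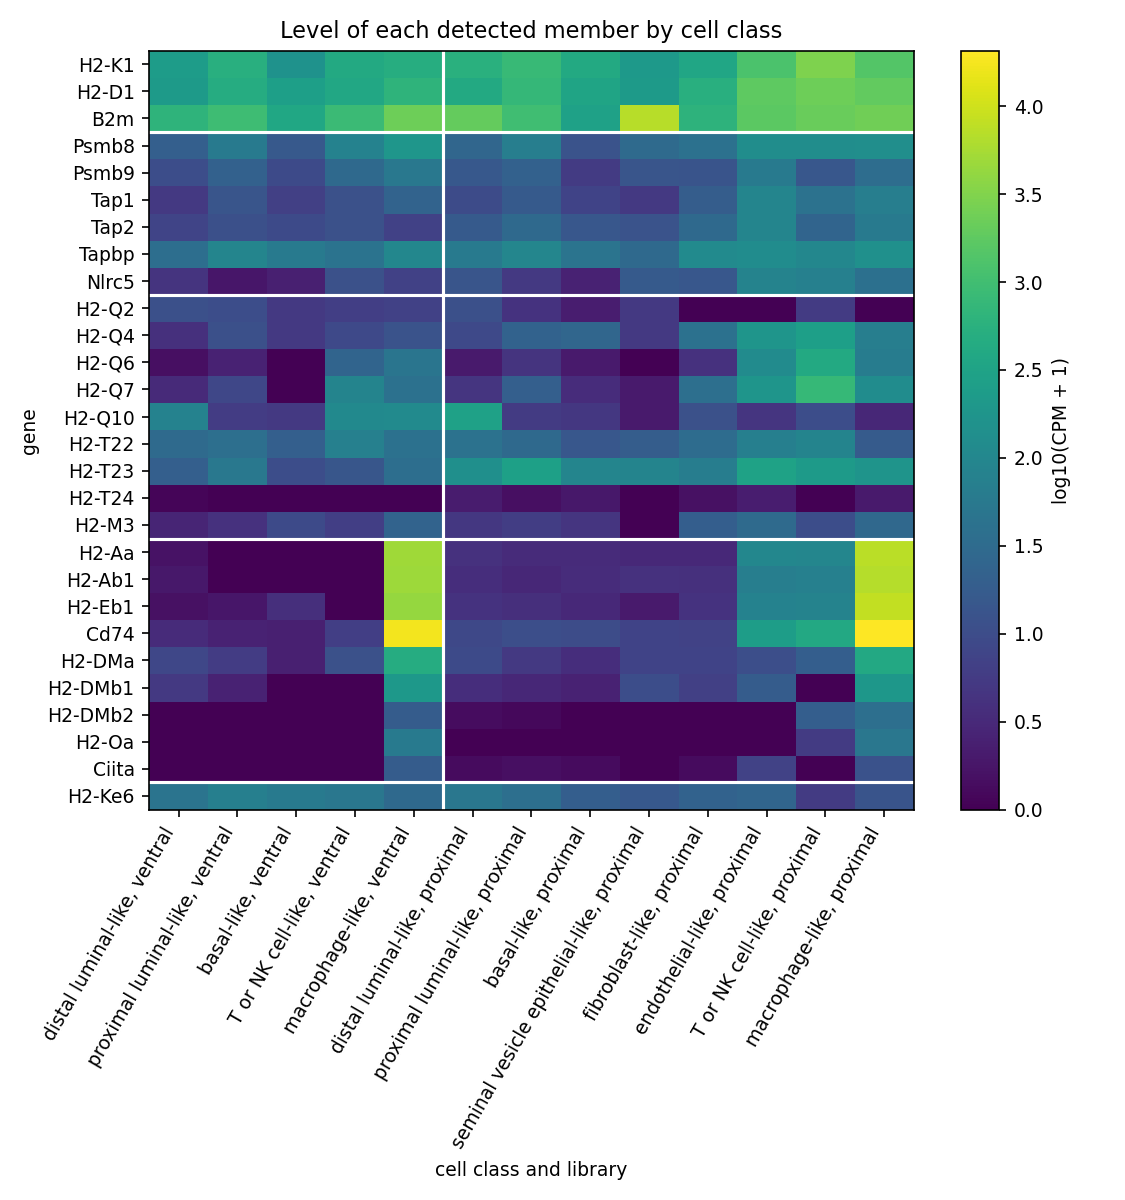
Level of each of the 28 members with at least 50 UMIs in a library, as the log10 of (CPM + 1), by class (columns, ventral library on the left and proximal library on the right). White lines separate the groups of members and the libraries. Cd74 stands at 17039.6 and 20658 CPM in the macrophage-like columns and at most at 395 CPM in the others, H2-Q10 at 80.2 and 295 CPM in the distal luminal-like and 116 CPM in the ventral macrophage-like columns, and B2m, H2-K1 and H2-D1 are filled throughout.

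The plot of levels by class shows a class I programme counted in every class and a class II programme held almost wholly by the macrophage-like cells. B2m, H2-K1 and H2-D1 were detected in all classes of both libraries.

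Class II chains were far more abundant in macrophage-like than in epithelial-like cells, by 6682-fold in the ventral and 2720-fold in the proximal library, where epithelial-like means the distal luminal-like, proximal luminal-like and basal-like cells of the same library together. H2-Aa, the A alpha chain, reached 5054 CPM in ventral macrophage-like cells against 0.604 CPM in the epithelial-like cells, and 7398 against 2.79 CPM in the proximal library. H2-Ab1, its beta chain, had 4840.4 against 0.895 CPM and 6732 against 2.49 CPM. H2-Eb1 had 4292 against 0.624 CPM and 8353 against 2.98 CPM. Summed, the 3 chains came to 14186 CPM (13631 to 14759) in ventral macrophage-like cells and 22483 CPM (22188 to 22781) in proximal ones, 6682-fold (5480 to 8228) and 2720-fold (2495 to 2971) above the epithelial-like cells. The invariant chain Cd74 followed with 17039.6 CPM in ventral and 20658 CPM in proximal macrophage-like cells, 7245-fold (6003 to 8821) and 2443-fold (2243 to 2667) above the epithelium. The size of these ratios rests on very low epithelial counts, and naming every cell by its own markers lowered the chain ratio from 11.41 to 8.62 on the log2 scale in the proximal library. The ventral value of 12.71 ran from 11.41 with cells named that way to 17.96 with 5% free RNA subtracted, and was 13.41 without cells of other classes with over 5% Sbp and Spink1.

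The genes that serve class II loading rose with the chains, at smaller ratios. H2-DMa, the alpha chain of the peptide exchanger, had 462 CPM in ventral and 400.3 CPM in proximal macrophage-like cells, 63.8-fold (49.4 to 81.6) and 66.8-fold (57.9 to 77.1) above the epithelium. H2-DMb1, one of its beta chains, had 196 and 189 CPM, 48.9-fold and 81.4-fold above. H2-DMb2, the other beta chain, was 137-fold higher (75.1 to 260.4) in the proximal library. H2-Oa, the alpha chain of the H2-DM inhibitor, had 57.8 CPM (10 UMIs) in ventral macrophage-like cells against no UMI in the ventral epithelium, at least 925-fold higher with a floor of 3 counts, and 49.8 CPM in the proximal ones against 1 UMI in the proximal epithelium. Ciita, the class II transactivator, was sparse, with 3 UMIs (17.3 CPM) in ventral and 11 UMIs (11.2 CPM) in proximal macrophage-like cells. Past 2-fold with 10 CPM added to both arms, 14 of the 23 members with at least 50 UMIs were higher and 0 lower in ventral macrophage-like cells, where 10.9% of all genes tested were higher and 7.37% lower. In the proximal library 19 of 27 were higher and 2 lower, beside 9.24% and 11.6% of all genes. Of the 14, H2-Aa, H2-Ab1 and H2-Eb1 reached 50 UMIs only through the macrophage-like cells, as did H2-Oa and H2-DMb2 of the 19, so their calls were fixed by the count minimum. The 2 lower members of the proximal library, H2-Q10 and H2-Ke6, reached it only through the epithelium.

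Cell by cell, class II was close to a yes or no property of the macrophage-like class. Over the 3 chains and Cd74 together, 29 of 30 ventral macrophage-like cells (96.7%, 82.8 to 99.9) and 76 of 79 proximal ones (96.2%, 89.3 to 99.2) were above 1000 CPM, a line drawn after the values were seen. Their levels ran from 77.6 CPM through a median of 56804 to 119768 CPM in the ventral library, and from 274 through 42685 to 95334 CPM in the proximal library. No distal luminal-like cell of the ventral library reached the line, 0 of 1704 cells with the highest at 559.6 CPM, which allows a share of up to 0.176% by the limit of 3 counts of the total. In the proximal library 1 of 707 distal luminal-like, 2 of 571 proximal luminal-like, 1 of 911 basal-like and 1 of 522 fibroblast-like cells crossed it. The fibroblast-like one did so on 1 UMI, and the distal luminal-like one carried 52 class II UMIs (1063 CPM) with no UMI of the macrophage markers or the leukocyte gene Ptprc. The basal-like one carried 49 class II UMIs (2618 CPM), also with no such UMI, and the 2 proximal luminal-like ones carried 47 and 18 class II UMIs with 2 and 0 such UMIs.

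**Figure D2:**
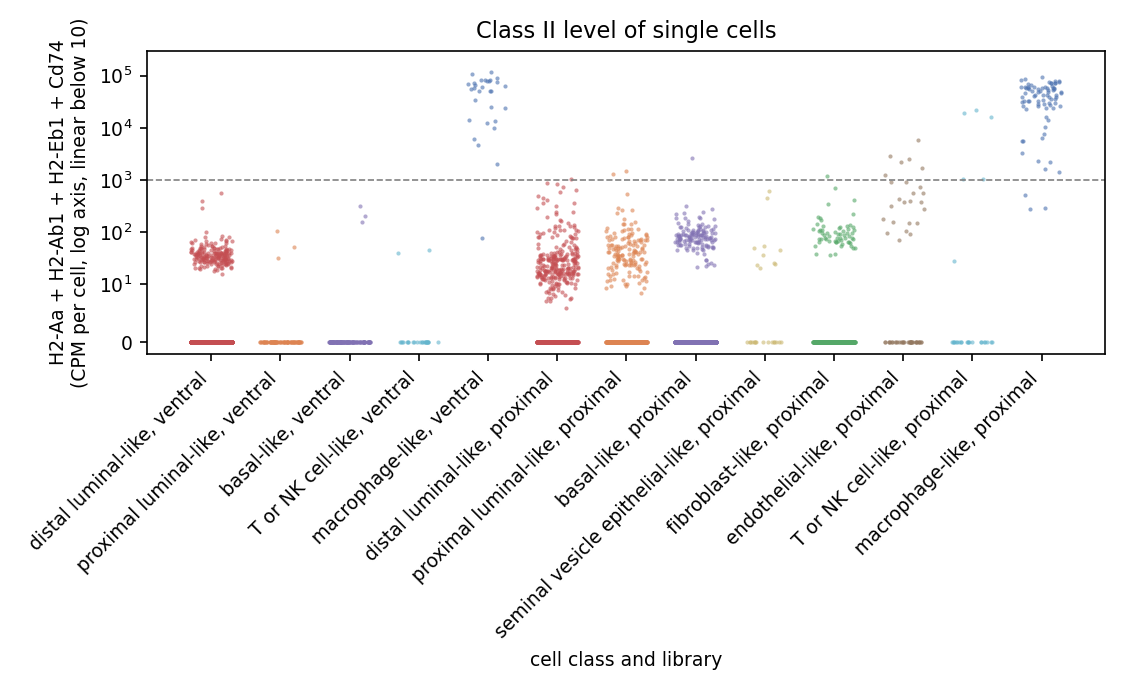
Class II level of every cell (H2-Aa, H2-Ab1, H2-Eb1 and Cd74 together), in CPM on an axis that is linear near 0 and logarithmic above, by class and library. Each point is a cell and the dashed line marks 1000 CPM. Macrophage-like cells sit above the line in both libraries, with 29 of 30 and 76 of 79 cells, and the other classes hold few cells there.

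With every cell thinned to 1000 UMIs, to take depth out of the comparison, a class II UMI was seen in 29 of 30 ventral (96.7%) and 75 of 78 proximal (96.2%) macrophage-like cells, and in all cells of both before thinning. Fibroblast-like cells, which are not known for class II, gave 1.94% (10 of 516; 0.933 to 3.54) after and 11.7% before thinning, at a median of 10300 UMIs. Endothelial-like cells, at 10500 UMIs, gave 20.0% (12 of 60; 10.8 to 32.3) and 41.0%. Proximal distal luminal-like cells gave 2.85% (1.75 to 4.37) and 38.6% at a median of 47734 UMIs, basal-like cells 1.21% and 14.6% at 12025, and proximal luminal-like cells 1.23% and 25.9% at 21154. The shares in these 3 epithelial-like classes did not exceed the fibroblast-like share beyond counting error, so no difference from the fibroblast-like cells is read from them. Ventral distal luminal-like cells gave 0.646% (0.323 to 1.15) and 11.03% at 27197.5 UMIs, and ventral proximal luminal-like cells 0 of 87 (by the same limit of 3 counts, up to 3.45% of cells with a UMI), and 3.45% before thinning at 13752 UMIs.

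Outside the macrophage-like class, the endothelial-like and the proximal T or NK cell-like cells held more class II RNA than the epithelium, in a few cells each. The 3 chains summed to 248.8 CPM (216 to 286) in endothelial-like and 251 CPM (189 to 328) in T or NK cell-like cells of the proximal library, 30.1-fold (25.5 to 35.5) and 30.4-fold (22.5 to 40.2) above the epithelial-like cells, which had 8.27 CPM. In the endothelial-like class, 6 of 61 cells passed 1000 CPM. The highest of them carried 205 of the class's 404 class II UMIs together with 30 UMIs of macrophage markers and Ptprc, while the other 5 carried 9 to 31 class II UMIs and 0 of those. With doublets removed at the expected rate the endothelial-like ratio was 3.93 instead of 4.91 on the log2 scale, with at most 5% mitochondrial UMIs it was 3.94, and with each cell named by its own markers it was 1.15. In the T or NK cell-like class 5 of 27 cells passed the line. The 3 highest stood at 16256, 18914 and 21579 CPM on totals of 2153, 2062 and 1900 UMIs. These 3 cells also carried 8, 4 and 2 UMIs of Cd79a, Cd79b and Ms4a1, genes that mark B cells, and 10, 20 and 12 UMIs of Igkc, the immunoglobulin kappa constant gene. The 3 B cell genes summed to 74.4 CPM (16 UMIs) in that class, against at most 23.1 CPM in any other class of either library, and all 42 Igkc UMIs of the class lay in the same 3 cells. Since these cells were also the 3 highest for class II, leaving them out could only lower the class II ratio of the class. Without them that ratio was 2.38 (1.24 to 3.32) on the log2 scale instead of 4.92, a value computed after the data were seen. With at most 5% mitochondrial UMIs the T or NK cell-like ratio fell to 2.45 on the log2 scale.

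The macrophage-like class itself held cells with C1q transcripts and cells with dendritic cell markers, and the class II accessory genes were divided between them. The split took at least 2 UMIs of C1qa, C1qb and C1qc or of the dendritic cell markers and was made after the data were seen. In the proximal library 51 cells had C1q alone, 15 dendritic markers alone, 4 both and 9 neither. The 3 class II chains had a median of 20795 CPM (0 to 57126) in the C1q cells and of 29974 CPM (16340 to 45136) in the dendritic marker cells, so the ranges overlapped. H2-DMa summed to 292 CPM in the C1q cells and 681 CPM in the dendritic marker cells. H2-Oa had 43 of the class's 49 UMIs in the 15 dendritic marker cells and 6 in the 51 C1q cells, although the C1q cells held 609935 UMIs in all and the dendritic marker cells 270219. H2-DMb2 had 34 of 36 UMIs there, and H2-Ob, the beta chain that pairs with H2-Oa, had 19 of 22. The 9 cells with neither marker set had a class II chain median of 4728 CPM. In the ventral library 27 cells had C1q alone, with a chain median of 21694 CPM, and 2 had dendritic markers alone, which held 7 of the 10 H2-Oa UMIs.

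Class I heavy chains, in contrast, were present throughout and differed by severalfold. The sum of H2-K1 and H2-D1 in the proximal library was 5230.5 CPM (4929 to 5545) in T or NK cell-like cells, 3302 CPM (3189 to 3417) in macrophage-like cells, 2974 CPM (2856 to 3096) in endothelial-like cells and 1564 CPM (1545 to 1582) in proximal luminal-like cells. Below these came distal luminal-like, at 961 CPM (951 to 971), fibroblast-like, at 892 CPM (867 to 917), basal-like, at 744 CPM (729 to 759), and seminal vesicle epithelium-like cells, at 434 CPM (393 to 478). No neighbours in that order had overlapping counting intervals, but with abundant genes left out of the total the seminal vesicle epithelium-like cells, at 841 CPM (762 to 926), overlapped the basal-like ones, at 820 CPM (803 to 837). In the ventral library the order was macrophage-like at 1132 CPM (979 to 1302), proximal luminal-like at 980 CPM (926 to 1036), distal luminal-like at 463 CPM (457 to 469) and basal-like at 431 CPM (385 to 482). There the macrophage-like and proximal luminal-like intervals overlapped, as did the distal luminal-like and basal-like ones, but neither overlap remained under the other scalings. With abundant genes left out of the total, the first pair had 1660 (1436 to 1910) against 1275 CPM (1205 to 1348) and the second 967 (954 to 980) against 475 CPM (424 to 530). With median-of-ratios scaling they had 1325 (1146 to 1525) against 878 CPM (830 to 928) and 747 (737 to 757) against 420 CPM (375 to 470). The ventral T or NK cell-like cells, kept out of that order for their Sbp and Spink1 share, had 790 CPM, under the proximal luminal-like level, but 1340 against 1275 CPM with abundant genes left out of the total and 911 against 878 CPM with median-of-ratios scaling. Single cells spread widely: the middle 80% of cells, from the percentile 10 to the percentile 90, ran from 1505 to 8581 CPM in proximal T or NK cell-like, 912 to 4859 CPM in endothelial-like and 434 to 1564 CPM in distal luminal-like cells.

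Against the epithelium of their library, immune and endothelial-like cells were above in both heavy chains. Proximal T or NK cell-like cells had 5.05-fold H2-K1 (4.66 to 5.46) and 4.57-fold H2-D1 (4.17 to 5.00). Endothelial-like cells had 2.09-fold H2-K1 (1.96 to 2.23) and 3.52-fold H2-D1 (3.33 to 3.71), so H2-D1 stood further above the epithelium than H2-K1. Macrophage-like cells had 3.05-fold (2.94 to 3.16) the epithelial heavy chain sum in the proximal and 2.38-fold (2.06 to 2.74) in the ventral library. Over the alternatives that ratio ran from 1.42 to 1.74 on the log2 scale in the proximal and from 0.78 to 1.82 in the ventral library. Fibroblast-like cells had less H2-K1, 0.612-fold (0.584 to 0.640), and an H2-D1 level of 1.07-fold (1.03 to 1.12) that turned to -0.10 on the log2 scale with another random seed and to -0.033 with abundant genes left out of the scaling. B2m was 1.54-fold in T or NK cell-like and 1.20-fold in endothelial-like cells, below the ratios of both heavy chains there, and 0.441-fold in fibroblast-like cells, also below both. Past 2-fold, 13 of 25 members were higher and 2 lower in T or NK cell-like cells (9.89% and 12.7% of all genes), 16 higher and 1 lower of 25 in endothelial-like cells (9.6% and 6.2%), and 2 higher and 3 lower of 25 in fibroblast-like cells (10.5% and 4.99%). Of the 13 in T or NK cell-like cells, 4 were class II genes. In that class 5 of the 27 cells, the 3 with Igkc among them, held 99.3% of the UMIs of H2-Aa, H2-Ab1, H2-Eb1 and Cd74. The lower members of the T or NK cell-like cells, H2-Ke6 and H2-Q10, and of the endothelial-like cells, H2-Q10, reached 50 UMIs only through the epithelium. The fibroblast-like median of 0.03 on the log2 scale lay beside 0.05 for all genes, and that class gave no excess of higher members over the background share.

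The genes that make and carry class I peptides, as a sum of the 5, were also highest in endothelial-like cells (494 CPM) and macrophage-like cells (440 CPM) of the proximal library and in macrophage-like cells (364 CPM) of the ventral library. Psmb8, an immunoproteasome subunit, had 185 CPM in ventral and 137 CPM in proximal macrophage-like cells, 9.27-fold (6.30 to 13.2) and 3.92-fold (3.27 to 4.67) above the epithelium, and 129 CPM in endothelial-like and 130.2 CPM in proximal T or NK cell-like cells. Psmb9, its partner, was 5.35-fold higher in ventral macrophage-like and 4.13-fold higher (3.01 to 5.53) in endothelial-like cells. Tap1, a subunit of the peptide transporter, had 90.4 CPM in endothelial-like cells, 8.83-fold (6.84 to 11.3), and 69.1 CPM in proximal macrophage-like cells, 6.76-fold (5.18 to 8.68). Tap2, the other subunit, was 4.82-fold higher (3.76 to 6.09) in endothelial-like cells. Tapbp, which holds class I near the transporter, varied least of the 5, from 28.4 CPM in seminal vesicle epithelium-like to 143 CPM in macrophage-like cells of the proximal library. Nlrc5, the class I transactivator, had 84.2 CPM in endothelial-like and 74.4 CPM in T or NK cell-like cells against 8.13 CPM in the proximal epithelium, 10.4-fold (7.92 to 13.4) and 9.16-fold (5.19 to 15.01). Of Nlrc5 and the 5 peptide supply genes, 5 of 6 were past 2-fold higher in endothelial-like cells (9.6% of all genes), 5 in proximal macrophage-like (9.24%), 4 in ventral macrophage-like (10.9%), 3 in T or NK cell-like (9.89%) and 0 in fibroblast-like cells (10.5%).

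Endothelial-like cells also stood out in interferon-stimulated genes outside the 43. Of a list of 16 such genes, 15 could be tested there and 15 were past 2-fold above the epithelium, beside 9.6% of all genes. Gbp3 and Gbp4 among them, with 34 and 1 epithelial UMIs, reached the count minimum only through the endothelial-like cells. Gbp2, a guanylate-binding protein, had 433 against 2.60 CPM. Isg15, a ubiquitin-like modifier, had 381 against 54.8 CPM, and Bst2, which tethers budding virions, 295 against 66.1 CPM. In T or NK cell-like cells 9 of 13 were higher (9.89% of all genes), in proximal macrophage-like cells 7 of 14 (9.24%) and in fibroblast-like cells 6 of 14 (10.5%), and differences between these counts were not tested. The 4 interferon ligands Ifng, Ifnb1, Ifnl2 and Ifnl3 were too sparse to be tested in any comparison.

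Within the epithelium, proximal luminal-like cells carried more heavy chain RNA than distal luminal-like cells. H2-K1 had 517 against 242 CPM in the ventral library, 2.14-fold (1.97 to 2.31), and 804 against 541 CPM in the proximal library, 1.49-fold (1.45 to 1.52). H2-D1 had 463 against 221 CPM, 2.09-fold (1.92 to 2.28), and 760.1 against 420.3 CPM, 1.81-fold (1.77 to 1.85). Psmb8 was 3.09-fold higher (2.41 to 3.93) in the ventral and 2.70-fold higher (2.47 to 2.94) in the proximal library, and the peptide supply genes together 2.60-fold and 1.84-fold. On the log2 scale the ventral values, 1.63 for Psmb8 and 1.38 for the sum, were 0.78 and 0.53 with median-of-ratios scaling, and the proximal sum ran from 0.51 to 1.59 around 0.88 over the alternatives. The heavy chain difference kept its direction under every scaling but not its size. In the ventral library it was 1.08 on the log2 scale, 0.40 with abundant genes left out of the total and 0.23 with median-of-ratios scaling, which shifted the median of all genes by -0.36 and -0.45. For the proximal library the values were 0.70, 0.33 and 0.61, and 1.57 with coarser clusters (Leiden resolution 0.5). B2m had the direction of the heavy chains in the ventral library only, and only on this scale. It was 1.49-fold (1.40 to 1.57) there, which turned to -0.11 and -0.28 on the log2 scale under the other scalings, and 0.498-fold (0.490 to 0.507) in the proximal library. The proximal value depended on which distal luminal-like cells entered it, and was 1.02 (0.98 to 1.06) on the log2 scale against those of its cells with over 5% Sbp and Spink1, a split made after the data were seen. Such cells numbered 1651 of 1704 in the ventral but 166 of 707 in the proximal library, where 151 of them lay in cluster 2. Past 2-fold, 5 of 20 members were higher and 1 lower in the ventral library (12.1% and 0.378% of all genes), and 2 of 24 higher and 1 lower in the proximal library (9.78% and 3.99%), so the proximal count of higher members was near the background. The lower gene was H2-Q10 in both, which in the ventral library reached 50 UMIs only through the distal luminal-like cells.

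Basal-like cells of the proximal library had the least heavy chain and B2m RNA of the 3 epithelial-like classes. Their heavy chain sum was 0.774-fold (0.756 to 0.792) that of distal luminal-like cells and B2m 0.150-fold (0.145 to 0.155), at 296 against 1975 CPM. Against the distal luminal-like cells with over 5% Sbp and Spink1 alone, the log2 ratios were -0.25 for the heavy chains and -0.72 for B2m. H2-T22 was 0.337-fold and the peptide supply sum 0.663-fold, while H2-Q4, a gene of the Q region, was 3.15-fold higher (2.67 to 3.72). In the ventral library the heavy chain sum of basal-like cells was 0.932-fold (0.831 to 1.04), within counting error of equal, and fell to -1.03 and -0.83 on the log2 scale under the scaling without abundant genes and the median-of-ratios scaling. Past 2-fold there were 0 members higher and 1 lower of 20 in the ventral library (16.8% and 3.89% of all genes) and 0 higher and 4 lower of 23 in the proximal library (12.3% and 6.96%). The ventral one was H2-Q10, which reached 50 UMIs only through the distal luminal-like cells, so the count minimum fixed that call. Fibroblast markers summed to 5314 CPM in the ventral and 1340.2 CPM in the proximal basal-like class, against at most 113 CPM in other classes that are not fibroblast-like and 9053 CPM in the fibroblast-like class, and their part in these values was not tested.

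The light chain did not follow the heavy chains across the proximal epithelium. B2m was set against the summed heavy chains as UMIs of B2m per UMI of H2-K1 and H2-D1, a ratio to be read between classes only. It was 0.397 in basal-like, 0.406 in T or NK cell-like, 0.557 in endothelial-like, 0.630 in proximal luminal-like, 0.683 in fibroblast-like and 0.727 in macrophage-like cells of the proximal library, but 2.06 (2.03 to 2.08) in distal luminal-like and 16.1 (14.6 to 17.8) in seminal vesicle epithelium-like cells. The last class had the highest B2m level of all, 7000.0 CPM, with the lowest heavy chain sum of the proximal library on this scale, although its interval overlapped the basal-like one with abundant genes left out of the total. B2m was counted in 26 of its 26 cells, also after thinning to 1000 UMIs. Among distal luminal-like clusters of the proximal library B2m ranged from 439.8 CPM in cluster 2 to 3099 CPM in cluster 16, and the ratio from 0.492 (0.475 to 0.509) to 3.15 (2.95 to 3.38). In the ventral library the ratio was 1.07 to 1.36 in 9 of the 10 distal luminal-like clusters and 3.93 (3.72 to 4.15) in cluster 3. Across the 18 named proximal clusters, the heavy chain sum had a Spearman rho of 0.84 with the peptide supply sum and of 0.35 with B2m. Across the 14 ventral clusters the values were 0.68 and 0.77. These describe clusters of a shared library that differ in depth, and carry no test.

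**Figure D3:**
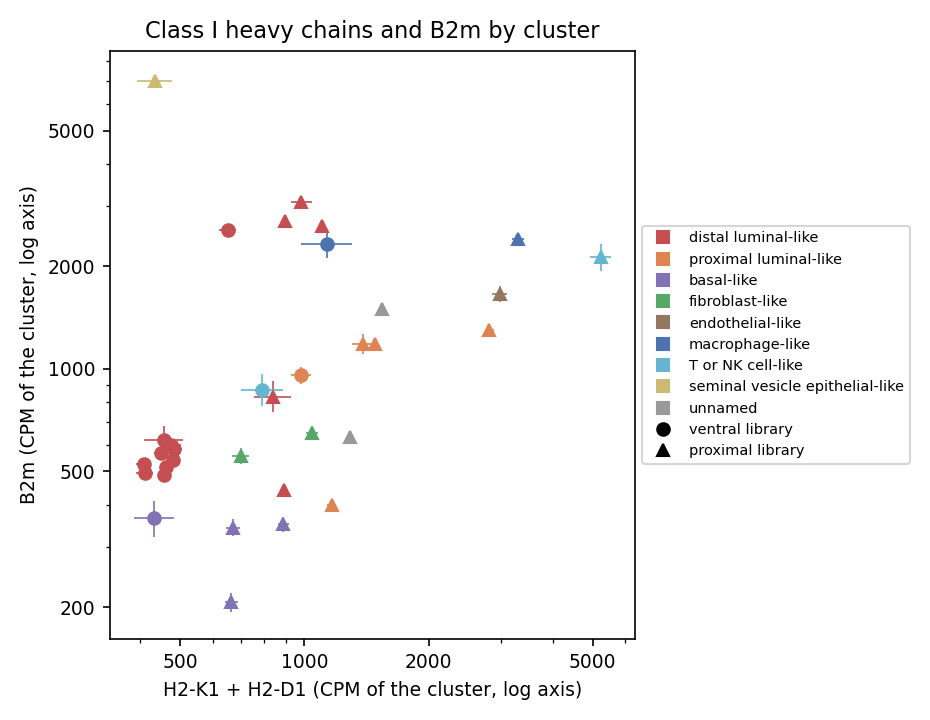
B2m level against the summed H2-K1 and H2-D1 level of each cluster, both in CPM on logarithmic axes. Circles are ventral and triangles proximal clusters, colours give the class, and bars are exact 95% counting intervals. The seminal vesicle epithelium-like cluster sits at 7000.0 CPM of B2m with 434 CPM of heavy chains, and ventral cluster 3 lies above the other ventral distal luminal-like clusters.

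H2-Q10 was more abundant in distal luminal-like cells, the secretory cells of the gland, than in basal-like and proximal luminal-like cells, as a class but not in every cluster. It encodes a class I heavy chain that is secreted and is best known from the liver. Its level in distal luminal-like cells was 80.2 CPM for the ventral and 295 CPM for the proximal library. Basal-like cells had 4.14 and 4.07 CPM, 0.0515-fold and 0.0138-fold, and proximal luminal-like cells 4.76 and 4.73 CPM, 0.0593-fold and 0.0161-fold. The ventral counts behind these were 3 and 6 UMIs, and over the alternatives the ventral log2 ratio ran from -8.20 to -2.84 for basal-like and from -6.44 to -1.58 for proximal luminal-like cells. Proximal macrophage-like cells had 2.03 CPM, while ventral macrophage-like cells had 116 CPM, all of it in 1 of their 30 cells, and ventral T or NK cell-like cells, rich in Sbp and Spink1, had 109 CPM (41 UMIs). After thinning, 6.52% of ventral and 13.0% of proximal distal luminal-like cells had a UMI, against 0 of 140 ventral and 0.329% of proximal basal-like cells and 2 of 26 ventral T or NK cell-like cells (7.69%). Before thinning these shares were 40.1%, 33.7%, 2.13%, 5.38% and 23.1%, at median depths of 27197.5, 47734, 4933, 12025 and 7820.5 UMIs.

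Inside the distal luminal-like class, H2-Q10 was concentrated in the cluster led by Msmb, which encodes the secreted beta-microseminoprotein, in each library. The clusters were formed without H2-Q10, and Msmb itself was among the genes that formed them. Ventral cluster 3, 96 cells, had 499.7 CPM of H2-Q10 against 56.1 CPM in the other 1608 distal luminal-like cells, 8.90-fold (8.31 to 9.53), with medians over cells of 457 and 0 CPM. Proximal cluster 8, 159 cells, had 842 against 50.7 CPM in the other 548 cells, 16.6-fold (15.6 to 17.7), with medians of 766 and 0 CPM. Of those other cells, cluster 2 had 109 CPM, cluster 14 had 13.8 CPM, and clusters 6 and 16 had 2.97 and 0.868 CPM, under the 4.07 CPM of the proximal basal-like class. B2m was 2555 against 536 CPM or 4.77-fold (4.64 to 4.90) in the ventral cluster. In the proximal library it was 2633 against 1682 CPM or 1.56-fold (1.54 to 1.59), but clusters 6 and 16 had more B2m than cluster 8, at 2719 and 3099 CPM, and cluster 2 had 439.8 CPM. H2-K1 was 1.73-fold (1.62 to 1.84) and 1.40-fold (1.36 to 1.45) higher in the Msmb-led clusters. H2-D1, whose upstream window resembles that of H2-K1, was 1.13-fold (1.04 to 1.23) and 1.02-fold (0.988 to 1.06). Sbp and Spink1 made up 11.4% of UMIs in ventral cluster 3 and 43.9% to 50.6% in the other ventral distal luminal-like clusters. In the proximal library they made up 0.943% in cluster 8, 51.1% in cluster 2 and 0.136% to 0.732% in clusters 6, 14 and 16. A CPM ratio moves with these shares. No other scaling was run for the Msmb-led clusters, and the part of these shares was not tested. The peptide supply genes did not move together. For Psmb8 and Tap1 the intervals included equality, with Psmb8 at 0.727-fold (0.503 to 1.02) and 1.06-fold (0.918 to 1.22) and Tap1 at 0.757-fold (0.322 to 1.52) and 0.781-fold (0.596 to 1.015). Those of Tap2 did too, at 1.17-fold and 0.897-fold. Tapbp was 1.45-fold (1.19 to 1.74) and 1.25-fold (1.14 to 1.37), and Psmb9 0.622-fold (0.345 to 1.04) and 0.569-fold (0.451 to 0.713). Nlrc5 was 3.85-fold (2.48 to 5.799) in the ventral but 0.688-fold (0.544 to 0.863) in the proximal cluster. H2-T23 was higher in both, at 1.57-fold and 1.68-fold.

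**Figure D4:**
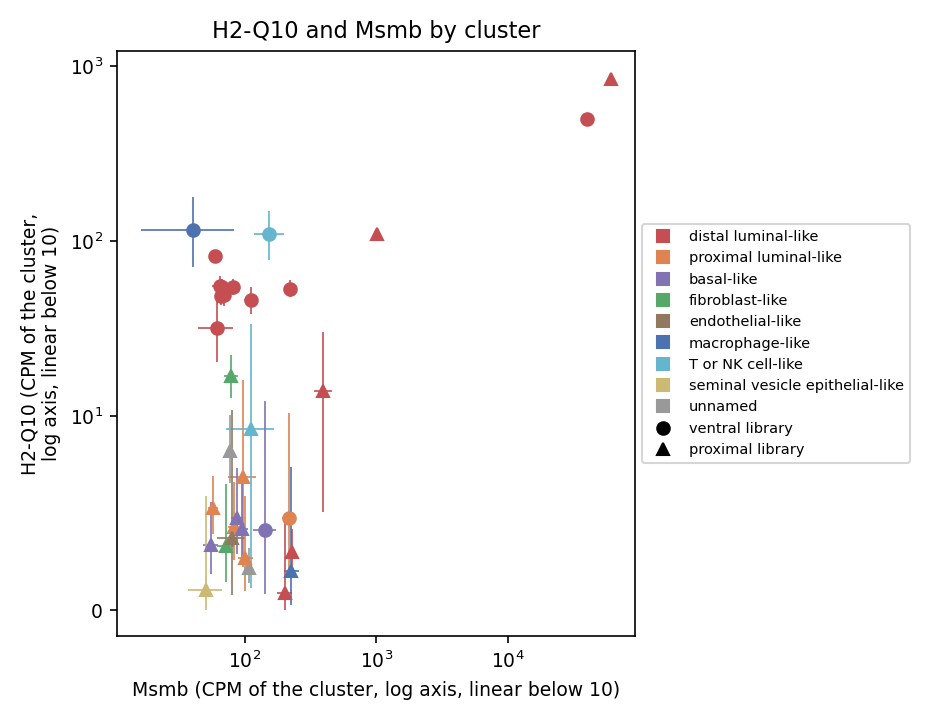
H2-Q10 level against Msmb level of each cluster, in CPM on axes that are linear near 0 and logarithmic above. Circles are ventral and triangles proximal clusters, coloured by class. The 2 clusters with most Msmb, ventral cluster 3 and proximal cluster 8, have the highest H2-Q10 levels, 499.7 and 842 CPM.

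A further spread lay within the proximal luminal-like class of the proximal library. Cluster 18, 85 cells led by Prol1, had a heavy chain sum of 2809 CPM (2739 to 2879), whereas clusters 1, 3 and 5 of the class had 1389, 1486 and 1164 CPM. H2-K1 had 1455 CPM in cluster 18 and 547 to 791 CPM in the other 3, and H2-D1 had 1354 CPM and 617 to 735 CPM. H2-Q7 stood at 98.4 CPM there and at 6.82 to 8.23 CPM in the other 3, H2-T23 at 471 against 195 to 284 CPM, Tap1 at 34.7 against 7.84 to 24.7 CPM and Psmb8 at 114 against 57.9 to 86.4 CPM. Not all members peaked there: Psmb9, Nlrc5 and H2-M3 were highest in cluster 1 of the class, at 42.5, 19.2 and 13.7 CPM. Of the interferon-stimulated genes, Isg15 had 380.3 CPM in cluster 18 and 59.7 to 119 CPM in the other 3, and Bst2 had 277 and 49.0 to 83.7 CPM. The class II chains did not set the cluster apart, with 7.67 CPM against 4.11 to 11.1 CPM.

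The non-classical class I genes showed 3 patterns besides that of H2-Q10. H2-Q6 and H2-Q7, related genes of the Q region that encode Qa-2, were highest in immune and endothelial-like cells. H2-Q7 had 790.4 CPM in proximal T or NK cell-like, 177 CPM in endothelial-like and 123 CPM in macrophage-like cells against 7.64 CPM in the epithelium, 103-fold (86.4 to 123), 23.2-fold (19.1 to 28.0) and 16.1-fold (13.1 to 19.7). H2-Q6 had 414, 119 and 65.0 CPM against 1.73 CPM. H2-Q4 had 269.7 CPM in T or NK cell-like and 177 CPM in endothelial-like cells against 15.3 CPM. H2-Q7 was also 4.83-fold higher (4.08 to 5.70) in fibroblast-like cells, but it stood at 61.7 CPM in 1 fibroblast-like cluster and 5.37 CPM in the other, and the ratio turned to -0.74 on the log2 scale with coarser clusters and -0.66 with another seed. Its 5.10-fold excess of proximal luminal-like over distal luminal-like cells had 218 of its 329 proximal luminal-like UMIs in the Prol1-led cluster 18 (98.4 CPM, against 6.82 to 8.23 CPM in the other 3 clusters of the class), and likewise turned to -0.89 on the log2 scale with cells named one by one from their markers. H2-T23, which encodes Qa-1, the ligand of the NK cell receptor NKG2A, was broad in the proximal library, from 66.2 CPM in fibroblast-like to 303 CPM in endothelial-like cells, with 281 CPM in proximal luminal-like cells. It was 2.78-fold (2.13 to 3.56) and 2.03-fold (1.95 to 2.12) as high in proximal luminal-like cells as in the distal luminal-like cells of the ventral and proximal library. H2-T22, a ligand of some gamma-delta T cell receptors, lay between 14.1 and 88.3 CPM in the proximal classes. H2-M3, which presents formylated peptides, was 6.43-fold higher (4.16 to 9.56) in macrophage-like, 6.96-fold (4.38 to 10.6) in endothelial-like and 4.39-fold (3.46 to 5.52) in fibroblast-like cells. H2-Q2 had 10.4 CPM in the distal luminal-like class of each library and no UMI in proximal fibroblast-like, endothelial-like or macrophage-like cells, and H2-T24 stayed at or under 1.24 CPM in the proximal classes. H2-Ke6 shares the name but encodes a hydroxysteroid dehydrogenase. It was lower in macrophage-like cells of the proximal library, at 12.2 against 40.5 CPM. Counts of near-identical genes are uncertain: windows of 91 bases, the length read, in the last 500 bases were shared with another gene for 36.8% of H2-Ke6, 25.9% of H2-T22, 12.9% of H2-T23, 12.4% of H2-DMb1 (with H2-DMb2), 10.5% of H2-Q6 and 9.27% of H2-Q4, and for none of H2-K1, H2-D1 and H2-Q10.

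Between the libraries, the heavy chains were higher in the proximal one in the 4 compared classes that both held, under all scalings and groupings run. Region and kit version differ together here, so no part of these values can be given to either. The heavy chain sum was 2.08-fold higher in proximal distal luminal-like cells, 1.60-fold in proximal luminal-like, 1.72-fold in basal-like and 2.92-fold in macrophage-like cells. In distal luminal-like cells that value, 1.05 on the log2 scale, was 0.49 and 0.27 under the other scalings. In proximal luminal-like cells, 0.67 became 1.63 with coarser clusters. In macrophage-like cells, 1.54 became 0.87 with doublets removed at the expected rate. Different clusters make up the distal luminal-like class in the libraries: 4 of its 5 proximal clusters, led by Msmb (cluster 8) or by other genes (clusters 6, 14 and 16), held 159, 239, 54 and 90 of its 707 cells and had under 1% Sbp and Spink1, against 43.9% to 50.6% in 9 of the 10 ventral clusters. B2m was 3.06-fold higher (3.02 to 3.10) in the proximal distal luminal-like class, but with cells of over 5% Sbp and Spink1 compared alone it turned to -0.26 (-0.30 to -0.21) on the log2 scale, while the heavy chain sum stayed at 0.96. It was 1.03-fold (0.969 to 1.09) in proximal luminal-like, 0.812-fold (0.717 to 0.924) in basal-like and 1.03-fold (0.926 to 1.15) in macrophage-like cells, where the log2 ratio ran down to -0.89 with doublets removed at the expected rate. H2-Q10 was 3.67-fold higher (3.54 to 3.82) in distal luminal-like cells, 1.09 on the log2 scale with median-of-ratios scaling instead of 1.88, and 1.04 between the cells with over 5% Sbp and Spink1. H2-T23 was higher in the same 4 classes: 138 against 19.1 CPM in distal luminal-like cells, 7.22-fold (6.72 to 7.76), 281 against 53.1 CPM in proximal luminal-like, 5.29-fold (4.16 to 6.83), 89.4 against 9.65 CPM in basal-like, 9.27-fold (4.48 to 23.1), and 169.7 against 34.7 CPM in macrophage-like cells, 4.90-fold (2.20 to 13.5). Its log2 ratio stayed between 1.43 and 3.47 in these 4 classes under all alternatives run. In basal-like and macrophage-like cells H2-T23 reached 50 UMIs only through the proximal library, so its calls past 2-fold there are not read as support. Fibroblast markers summed to 5314 CPM in the ventral and 1340.2 CPM in the proximal basal-like class, and their part in the basal-like ratios between libraries was not tested. The 3 class II chains were 1.58-fold higher (1.52 to 1.65) in proximal macrophage-like cells. That excess turned to -0.046 on the log2 scale once the 2 ventral cells rich in Sbp and Spink1 were left out.

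**Figure D5:**
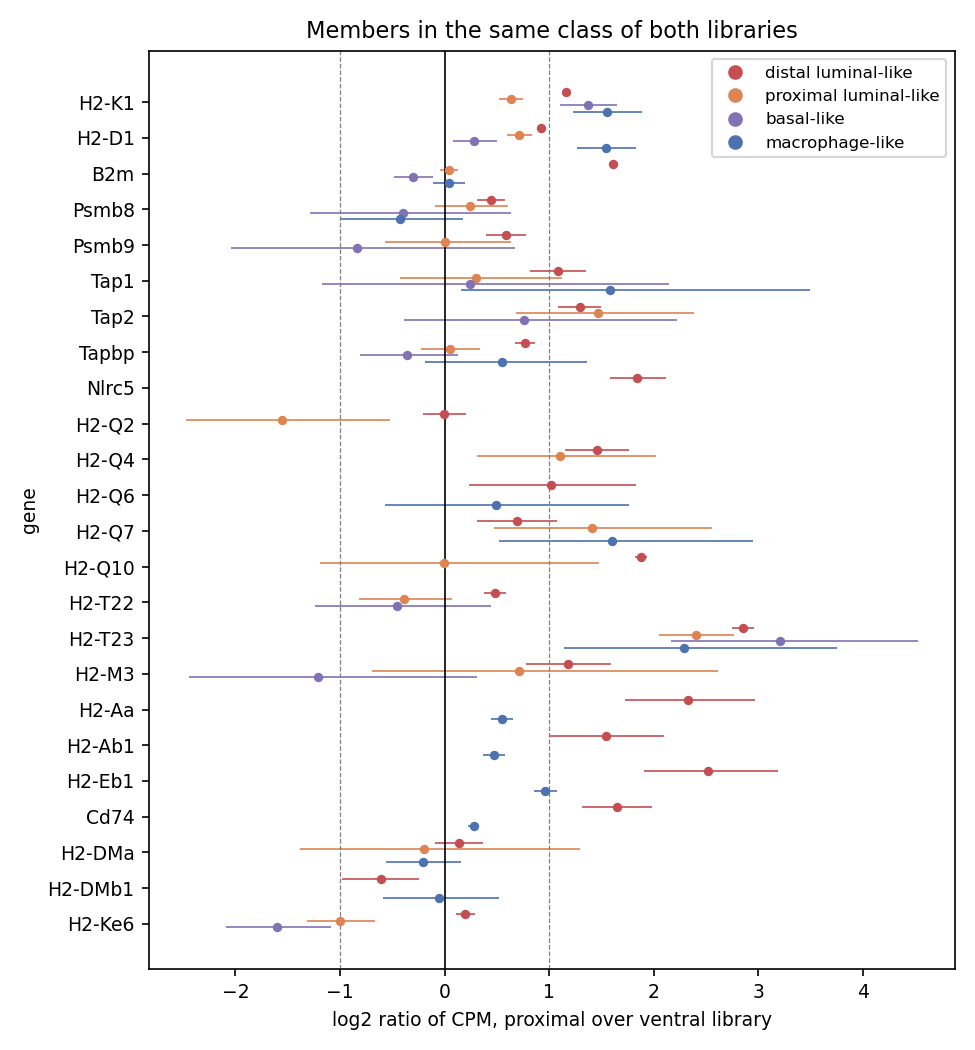
Log2 ratio of the proximal over the ventral library for each member, in distal luminal-like, proximal luminal-like, basal-like and macrophage-like cells, with exact 95% counting intervals. Dashed lines mark 2-fold in either direction. H2-T23 lies to the right of the line in all 4 classes, but in basal-like and macrophage-like cells it reached 50 UMIs only through the proximal library. B2m lies there only in distal luminal-like cells, where its log2 ratio turned to -0.26 between cells with over 5% Sbp and Spink1.

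Counted past 2-fold between the libraries, 4 of 24 members were higher and 0 lower in distal luminal-like cells (8.56% and 0.369% of all genes), 1 of 21 higher and 0 lower in proximal luminal-like cells (11% and 4.67%), 3 of 15 higher and 1 lower in basal-like cells (17.2% and 8.05%) and 7 of 18 higher and 0 lower in macrophage-like cells (40.6% and 3.87%). The distal luminal-like count of 4 became 2 with median-of-ratios scaling, 8 with each cell named by its own markers, 10 with a pseudocount of 1 CPM and 1 between cells with over 5% Sbp and Spink1. The basal-like and macrophage-like shares of higher members lay near the background. Of those members, 2 of the 3 and 5 of the 7, H2-T23 among both, reached 50 UMIs only through the proximal library. The lower one in basal-like cells was H2-Ke6, at 18.6 against 56.5 CPM.

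The 15 members under 50 UMIs in both libraries were mostly non-classical class I genes. No UMI was counted for H2-M1, H2-M9, H2-M10.2, H2-M10.3, H2-M10.4, H2-M10.5, H2-M10.6 and H2-M11. H2-Ob, H2-M5, H2-Eb2, H2-Q1, H2-M2, H2-T3 and H2-M10.1 had from 1 to 33 UMIs over both libraries.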

How the data were processed

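Single-cell libraries of 1 ventral and 1 proximal and periurethral mouse prostate sample were analysed from the deposited raw counts of UMIs per gene and barcode. The authors made these with Cell Ranger 7.0.0 against mm10, per the submitters' processing notes, and the tables carry no normalization. The libraries summed to 49356586 and 97817603 UMIs. The members and lists were chosen with earlier results of these data known. All 43 genes of the rule are accounted for. Named with values are the members outside H2-, H2-K1, H2-D1, the class II genes with at least 50 UMIs, the most abundant other H2- genes and members past 2-fold, while low-count members are named with counts only. H2-Ob, single clusters, Prol1 and Msmb were singled out after their values were seen.

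Python 3.11.15 with scanpy 1.11.5, anndata 0.12.19, numpy 2.4.6, pandas 2.3.3, scipy 1.17.1 and igraph 0.11.9 was used, and matplotlib 3.10.9 for plots. Barcodes with under 500 genes or over 10% mitochondrial UMIs were removed, then 7 and 4 cells that Scrublet called doublets at an expected 0.8% per 1000 cells. Cells were scaled to 10000 UMIs and log-transformed, and 2000 variable genes without the members, 30 principal components and 15 neighbours gave Leiden clusters at resolution 1 with seed 0. Clusters took a name from 21 marker lists where at least 3 markers were found in 25% of cells and the 10 leading genes did not hold more markers of another class, not counting genes present in like shares of all clusters (within 1.5-fold). The summed level of 1 of these lists is not reported here. UMIs were summed per class and given as CPM with exact 95% intervals, and shares of cells with exact Clopper-Pearson intervals after thinning to 1000 UMIs, or, for a share of 0, with the limit of 3 counts of the total. Intervals cover counting error only. A count called past 2-fold used a pseudocount of 10 CPM and genes with at least 50 UMIs in the compared classes. No p-value was computed, since cells are not replicates. Ratios, their intervals and the thinning were tested on simulated data. Alternatives changed the cell filters, doublet removal, clustering, naming, scaling, free RNA, thinning, pseudocount and count minimum.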

Additional observations from a re-analysis of the deposited data

Results flagged for a closer look

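A few members pointed in opposite directions in the libraries for the same pair of classes, each with a counting interval that excludes equality. Whether the ventral and the proximal value differ was not tested, since each comes from 1 library, and the kit version differs with the region. B2m in proximal luminal-like over distal luminal-like cells was 1.49-fold in the ventral and 0.498-fold in the proximal library, and the ventral value turned to -0.11 and -0.28 on the log2 scale under the scalings without abundant genes and by median of ratios. Against only the distal luminal-like cells with over 5% Sbp and Spink1, the proximal value turned to 1.02, the direction of the ventral one. H2-Ke6, the hydroxysteroid dehydrogenase gene, was 1.66-fold and 0.724-fold in the same pair of classes, and its ventral value turned to -0.12 on the log2 scale with median-of-ratios scaling and its proximal value to 0.33 against those Sbp-rich cells. In basal-like over distal luminal-like cells, Tapbp was 1.68-fold in the ventral and 0.771-fold in the proximal library, and the ventral value turned to -0.18 without abundant genes and the proximal one to 0.27 against the same cells. H2-D1 was 1.23-fold and 0.788-fold there, and its ventral value turned to -0.63 and -0.43 under the other scalings. The 5 peptide supply genes Psmb8, Psmb9, Tap1, Tap2 and Tapbp together were 1.29-fold and 0.663-fold in the same pair, and the ventral value turned to -0.55 and -0.36 on the log2 scale under the scalings without abundant genes and by median of ratios.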

How the results depend on the processing

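No paired analysis was possible because each region had 1 library. Values are log2 ratios unless given as a share, and the cause of a change was not tested. For the heavy chain sum of proximal luminal-like over distal luminal-like cells, 1.08 in the ventral library became 0.92 with at least 1000 genes per cell, 0.92 with at most 5% mitochondrial UMIs, 0.99 and 0.84 at Leiden resolution 0.5 and 2, 0.96 with the members kept among the variable genes, 0.84 with random seed 1, 1.25 with each cell named by its own markers, 0.40 scaled without abundant genes, 0.23 scaled by median of ratios and 1.34 without cells of other classes with over 5% Sbp and Spink1. In the proximal library 0.70 became, in the same order where it moved, 0.54, 0.54, 1.57, 0.67, 0.65 (seed 1), 0.46 (own markers), 0.33 and 0.61 (scalings), 0.73 with 5% free RNA subtracted and 0.62 with unnamed clusters given their best-scoring class, an alternative chosen after seeing the data.

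For basal-like over distal luminal-like cells, the proximal heavy chain value of -0.37 became -0.25 (5% mitochondrial), -0.43 (own markers) and -0.72 (without abundant genes), and the ventral -0.10 became -1.03 and -0.83 (scalings). The proximal class II ratio of -0.40 turned to 0.50 (5% mitochondrial). In the ventral library H2-D1 turned to -0.63 and -0.43 and Tapbp to -0.18 (scalings), as did B2m of proximal luminal-like over distal luminal-like cells, to -0.11 and -0.28. The ventral peptide supply sum of basal-like over distal luminal-like cells turned to -0.55 and -0.36 (scalings), and H2-Ke6 of proximal luminal-like over distal luminal-like cells to -0.12 (median of ratios).

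Against the epithelium, the T or NK cell-like heavy chain ratio of 2.27 became 2.47 (5% mitochondrial), 2.42 (doublets removed at the expected rate), 2.40 (resolution 0.5), 2.07 and 2.09 (scalings) and 2.17 (best-scoring class). The endothelial-like 1.46 became 1.64, 1.57, 1.59, 1.27, 1.35 and 1.35 under the same 6 settings. The fibroblast-like -0.28 became -0.23 (5% mitochondrial), -0.35 (resolution 2), -0.48 (seed 1), -0.38 (own markers), -0.42 and -0.35 (scalings) and -0.39 (best-scoring class). In fibroblast-like cells H2-Q7 turned to -0.74 (resolution 0.5) and -0.66 (seed 1), H2-D1 to -0.10 (seed 1), -0.033 (without abundant genes) and -0.028 (best-scoring class), and Psmb8 to -0.033 (own markers) and -0.083 (best-scoring class). H2-Q7 of proximal luminal-like over distal luminal-like cells turned to -0.89 (own markers). The macrophage-like class II ratio of 12.71 in the ventral library became 13.41 (doublets), 13.04 (resolution 0.5), 13.06 (seed 1), 11.41 (own markers), 12.24 and 12.29 (scalings), 17.96 (free RNA) and 13.41 (without Sbp and Spink1 cells), and 11.41 in the proximal library became 11.54 (seed 1) and 8.62 (own markers).

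Between the libraries, the distal luminal-like heavy chain ratio of 1.05 became 1.02 (1000 genes), 1.011 (doublets), 1.13 (own markers), 0.49 and 0.27 (scalings). The proximal luminal-like 0.67 became 1.63 and 0.88 (resolution 0.5 and 2), 0.79 (members kept), 0.86 (seed 1), 0.33 (own markers), 0.42 (without abundant genes), 0.41 (without Sbp and Spink1 cells) and 0.59 (best-scoring class). The macrophage-like class II ratio of 0.66 became 0.88 (1000 genes), 0.77 (5% mitochondrial), 0.025 (doublets), 0.30 (resolution 0.5), 0.30 (seed 1), 0.051 (own markers), 0.32 and 0.38 (scalings) and -0.046 (without Sbp and Spink1 cells). In distal luminal-like cells Psmb8 turned to -0.12 and -0.34, Tapbp to -0.020 and H2-Q7 to -0.091 (scalings), H2-Ke6 to -0.37 and -0.59 (scalings) and the peptide supply sum to -0.038 (median of ratios). The proximal luminal-like peptide supply sum turned to -0.19 (own markers), -0.011 (without abundant genes) and -0.085 (without Sbp and Spink1 cells). The count of members past 2-fold in distal luminal-like cells went from 4 to 8 (own markers), 2 (median of ratios) and 10 (pseudocount of 1 CPM).

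With distal luminal-like cells restricted to those with over 5% Sbp and Spink1, chosen after seeing the data, the proximal heavy chain ratios became 0.82 (proximal luminal-like) and -0.25 (basal-like) and that between libraries 0.96. In the proximal library class II of proximal luminal-like and basal-like over these cells turned to 0.55 and 0.50, B2m and H2-Ke6 of proximal luminal-like cells to 1.02 and 0.33, and Tapbp of basal-like cells to 0.27. Between the libraries B2m turned to -0.26 and H2-Ke6 to -0.59, and the count past 2-fold was 1.

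The share of cells with a class II UMI in ventral distal luminal-like cells, 0.646%, was 0.283% (1000 genes), 11.03% (no thinning) and 0.0% (at least 2 UMIs), and in proximal ones 2.85% became 4.67% (own markers), 38.6% and 0.143%. In ventral macrophage-like cells 96.7% became 100% (resolution 0.5, seed 1, own markers, without Sbp and Spink1 cells, thinning to 2000 UMIs, no thinning), and in proximal ones 96.2% became 100% (no thinning). The 26 to 87 cells of the small classes and a library per region set the limits of these values.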
